A study of Mus musculus with 4 samples.

Results

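Wnt signalling genes were examined in the tables of m6A peaks that differed between MIN6 cells given a GR expression vector and MIN6 cells given a control vector. The genes are those of the "Wnt signaling pathway" row in the authors' deposited KEGG pathway table, each Entrez gene counted once, without the D-type cyclins and without genes that also stand in the row for ubiquitin mediated proteolysis. This left 46 genes of the 52 in the row. The series as a whole lists 9225 gene IDs as related to differential peaks. The members were therefore chosen by the same readout that is described here, so that a member is listed is a matter of selection and no finding.

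MIN6 is a mouse insulinoma line (strain C57BL/6 per the labels) used as a model of the pancreatic beta cell. Both arms were transfected with 10 µg of plasmid per dish, either a control vector or an expression vector for GR, read here as the glucocorticoid receptor. RNA was taken 24 hours later. Each arm is represented by 1 input library and 1 library of antibody-enriched m6A fragments (4 libraries), so differences between the arms come without replication. The tables compare GR with control and give nothing for a single library. The depth is unknown, and no fold, direction or peak position is given for any of the 46 genes. None of them is among the 22 genes of the authors' table of autophagy peaks, where folds are given (0 of 22).

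As background, Wnt proteins are secreted lipid-modified ligands that bind Frizzled receptors together with the co-receptors LRP5 and LRP6. Without ligand, a destruction complex built on axin and APC lets the kinases CK1 and GSK3 phosphorylate beta-catenin, which is then ubiquitinated and degraded. With ligand, Dishevelled proteins draw axin to the membrane, beta-catenin accumulates, and it switches on genes with TCF/LEF factors in the nucleus. Non-canonical arms act through small GTPases on cell polarity or through calcium, calcineurin and protein kinase C. In the beta cell, Wnt signalling is known for its links to proliferation and insulin secretion. N6-methyladenosine (m6A) is an internal mark of messenger RNA that affects its decay, splicing and translation.

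The listed genes ran through every level of the pathway, from ligand to nucleus. They comprised 5 Wnt ligands, 2 secreted regulators, 10 receptors and membrane regulators, 7 genes of Dishevelled and its regulators, 7 of the destruction complex and beta-catenin turnover, 7 nuclear cofactors and target genes, 1 gene of the planar cell polarity arm and 7 of the calcium arm. In the authors' deposited table the whole row counted 55 input IDs against 146 background genes, with p = 1.66e-05 and an adjusted p of 6.01e-05. Those 55 IDs stood for 52 distinct Entrez genes (35.6% of 146), and 47 of these (32.2%) had an input ID that carried a gene symbol. Of all protein-coding genes of the reference, 25.2% were listed, counted under their own gene ID only. The difference from that share was not tested here. The 6 genes left out here were Ccnd2, Ccnd3, Siah1b, Cul1, Rbx1 and Rbx1-ps, each on 1 or 2 lines of the gene table.

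Of the 46 genes, 42 were listed under their own Ensembl ID. The other 4 entered the row only through an ID without a symbol, which the deposited table had assigned to the Entrez number of the Wnt gene. Trp53, the tumour suppressor p53 that KEGG places at beta-catenin turnover, was counted through Trp53-ps, a pseudogene on chromosome 17, whereas Trp53 itself lies on chromosome 11. Ruvbl1, an ATPase that binds beta-catenin, was counted through Gm3086, a transcribed pseudogene on chromosome 12, while Ruvbl1 lies on chromosome 6. Fzd5, a Frizzled receptor, was counted through Gm38058, for which the RefSeq table gave no entry. Cxxc4, which encodes the Dishevelled inhibitor Idax, was counted through the long non-coding RNA gene Gm26691, which ends 86.9 kb from Cxxc4 on the same chromosome. The gene table holds no line under the own ID of any of these 4 genes. A share of 8.70% (4 of 46) entered this way, against 11.1% of all 2074 Entrez genes in the 290 pathway rows (230 genes).

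Csnk1e and Chd8 were listed under their own ID and, in addition, through a long non-coding RNA gene inside their bounds. Csnk1e, casein kinase 1 epsilon, which phosphorylates Dishevelled, had 1 line of its own and 6 lines under Gm16059. Gm16059 (chromosome 15, 79426482 to 79429280, GRCm38.p6) lies within Csnk1e (79417852 to 79455579) on the opposite strand. Chd8, a chromatin remodeller that represses beta-catenin targets, had 1 line of its own and 2 under Gm26590, which lies inside it on chromosome 14. Whether reads were counted by strand is not stated, and without strand the RNA of a gene and of an antisense partner cannot be told apart. The 6 unnamed models held 20 of the 83 lines assigned to the 46 genes.

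The gene bounds of 7 members (15.2%) overlapped another gene of the table, against 12.9% of all 5526 listed protein-coding genes. Besides Csnk1e and Chd8, these were Ctnnb1, Cxxc4, Fzd4, Dvl1 and Nfatc3. The 12.9% covers genes listed under their own ID only, whereas the members include some without such a line, Cxxc4 among them. The 2 shares are therefore not quite like counts. Chd8 also contains the small nucleolar RNA gene Snord8, which had 3 lines. Ctnnb1, the gene of beta-catenin, contains the microRNA gene Mir7090 on its own strand, and each had 1 line. Cxxc4 contains Mir1895 on the opposite strand, and that microRNA gene had 4 lines while Cxxc4 had none. Fzd4 shared 338 bases with Tmem135 (2 lines) and Dvl1 shared 36 bases with Tas1r3 (2 lines), head to head and tail to tail, respectively, on opposite strands. Nfatc3 shared 219 bases at its edge with Esrp2, an epithelial splicing regulator with 4 lines. A line of the gene table gives no position, so to which of the overlapping genes a peak belongs was not tested.

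The mature microRNAs of the listed microRNA genes inside Ctnnb1 and Cxxc4 are shown because these are the only microRNA genes listed within the Wnt genes. They are printed 5′ to 3′ from RefSeq (GRCm38.p6), with the seed, bases 2 to 8, in capitals. The 3 seeds differ from one another. The table lists the microRNA genes and does not say whether a peak lay in the mature RNA.
mmu-miR-7090-5p (chr9:120955089-120955111, plus strand): uCUCAGAGuugggacaccaugag
mmu-miR-7090-3p (chr9:120955128-120955147, plus strand): uUUGAUGUcugacuuugcag
mmu-miR-1895 (chr3:134240515-134240536, minus strand): cCCCCGAGgaggacgaggagga

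**Figure D1:**
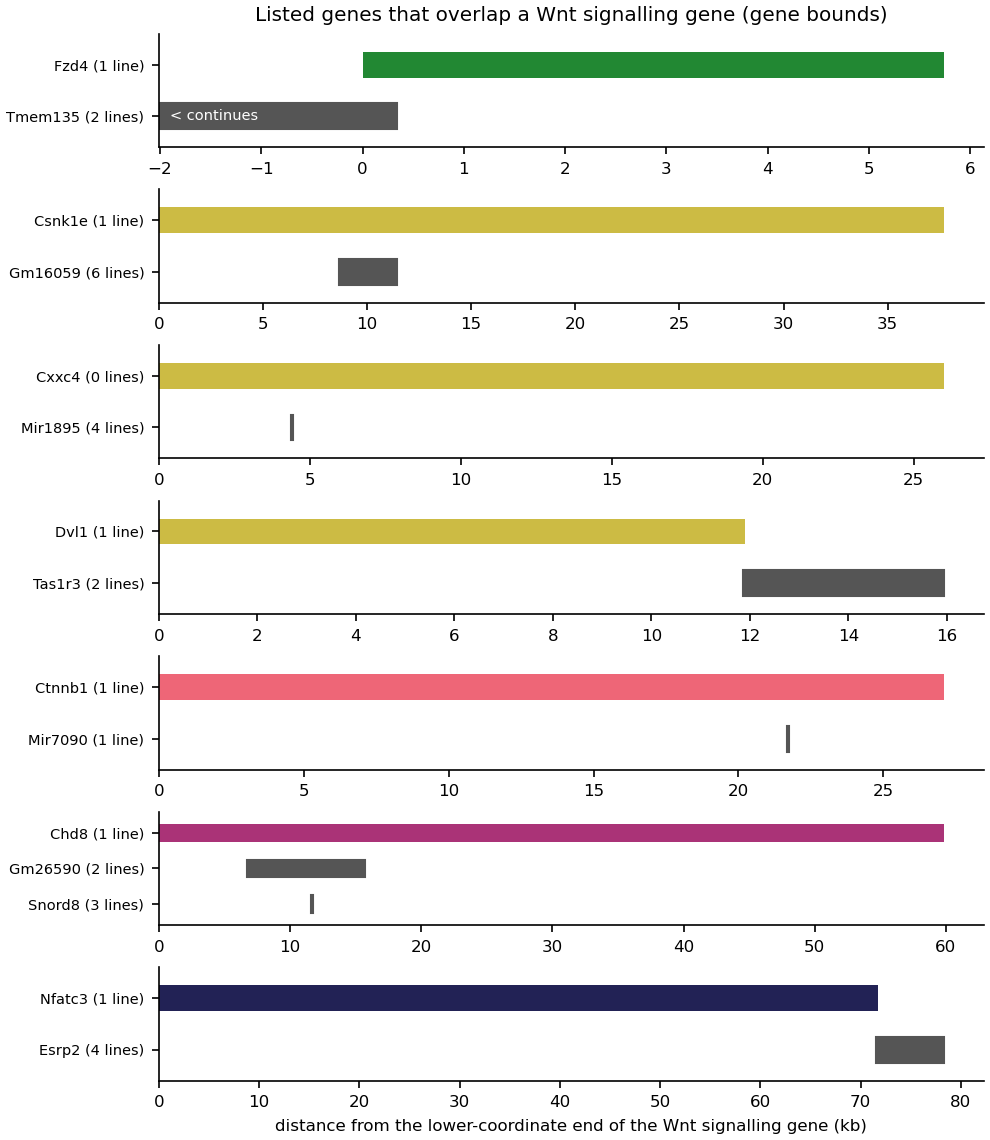
Gene bounds of the 7 Wnt signalling genes (coloured) that overlap another listed gene (grey), in kb from the lower-coordinate end of each Wnt gene, each panel on its own scale, with lines in the gene table in brackets. Gm16059 lies inside Csnk1e and had 6 lines where Csnk1e had 1.

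Lines per gene differed little within the set. A line carries only an ID, a symbol and protein domain names, repeated lines of an ID were identical, and the meaning of a line is not documented. The number of lines is therefore given as a description and not as a number of peaks. Under all IDs, 30 of the 46 genes had 1 line and 16 (34.8%) had 2 or more. Of all 9225 listed IDs, 44.4% had 2 or more lines. Under their own ID, 12 of 42 genes (28.6%) had 2 or more lines, against 44.5% of listed protein-coding genes. The highest count under an own ID was 4, for Csnk1a1 and Ppp3cb, while the highest of any listed protein-coding gene was 39. The median was 1 line in each of these sets.

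**Figure D2:**
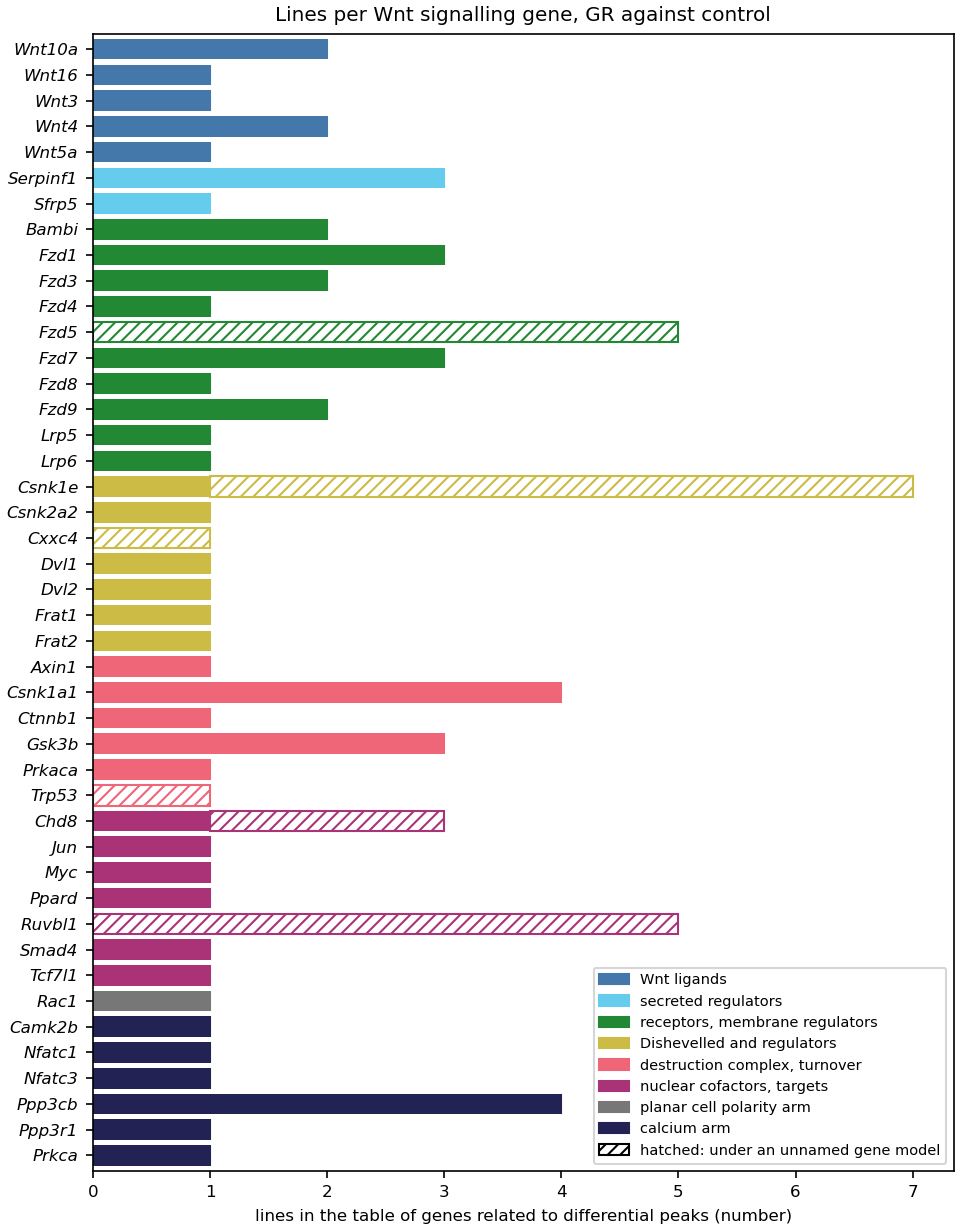
Lines in the gene table (number, x axis) for 44 of the 46 Wnt signalling genes, coloured by role; solid bars are lines under the gene's own ID and hatched bars lines under an unnamed gene model. Most genes stand at 1 line, and the longest bar, Csnk1e at 7, is 1 own line and 6 of Gm16059.

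Among the ligands, Wnt10a and Wnt4 had 2 lines each, and Wnt3, Wnt5a and Wnt16 had 1. Wnt3 and Wnt10a are mostly known as canonical ligands that stabilise beta-catenin, Wnt5a as the leading non-canonical ligand, and Wnt4 acts in either way depending on the tissue. The listed ligands thus came from both branches. They made up 5 of the 19 mouse Wnt genes (26.3%), close to the 25.2% of all protein-coding genes of the reference (5526 of 21900) that were in the gene table. Wnt1, Wnt2, Wnt2b, Wnt3a, Wnt10b and Wnt11 were among the 14 without a line. The secreted regulators were Serpinf1 with 3 lines, which encodes PEDF, a secreted protein reported to bind LRP6, and Sfrp5 with 1 line, a decoy that binds Wnt proteins.

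Receptors had the most lines as a role, 21 over 10 genes, of which 5 are the lines of Gm38058. Fzd1 and Fzd7 had 3 lines each, Fzd3 and Fzd9 had 2, and Fzd4 and Fzd8 had 1. The co-receptor genes Lrp5 and Lrp6 were both listed, with 1 line each. Bambi, a membrane pseudoreceptor best known for blocking TGF-beta signalling, had 2 lines. Of the 9 receptor genes listed under their own ID, 5 (55.6%) had 2 or more lines, whereas 7 of the 33 other members did (21.2%). The share of all listed protein-coding genes was 44.5%, so the receptors were near it and the other members below it. This contrast was seen after the values were known and the difference was not tested. Under own IDs, the Frizzled family had 6 of its 10 genes in the table, with Fzd2, Fzd5, Fzd6 and Fzd10 absent. This family count was made after the values were seen, and 25.2% of all protein-coding genes were in the table.

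The Frizzled genes were compact. Their 6 genes listed under own IDs spanned a median of 4.59 kb of genome, from 2.11 kb for Fzd9 to 70 kb for Fzd3. The median span was 16.5 kb for listed protein-coding genes and 17.1 kb for all protein-coding genes. Over the 42 members under own IDs the median was 27.3 kb, up to 411 kb for Prkca, so the short span held for the Frizzled genes and not for the set. In the deposited domain annotation, 8 listed genes carried a domain whose name begins with Frizzled. These were the 6 Frizzled genes, Sfrp5 and Mfrp, a membrane frizzled-related protein that is no member.

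Dishevelled proteins carry the signal from the receptor to axin. Dvl1 and Dvl2 had 1 line each and Dvl3 had none. Frat1 and Frat2, which encode GSK3-binding proteins that keep the kinase away from axin, had 1 line each and lie 13.4 kb apart on chromosome 19. They were the only 2 listed genes with a GSK3-binding protein domain name. Csnk2a2, a catalytic subunit of casein kinase 2, also had 1 line. The DIX domain, through which Dishevelled and axin polymerise, was named for 3 listed genes, Dvl1, Dvl2 and Axin1, all of them members.

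In the destruction complex, the scaffold Axin1 had 1 line, the priming kinase Csnk1a1 had 4 and Gsk3b, the kinase that marks beta-catenin for degradation, had 3. Their substrate Ctnnb1 had 1 line. The complex was thus represented by a scaffold, both kinase steps and the substrate, while Apc, Apc2 and Axin2 were not in the gene table. Prkaca, the catalytic subunit of protein kinase A, had 1 line. In the authors' deposited GO table the term "beta-catenin destruction complex" listed 4 of 8 background genes (50.0%), and all 4 were members (Axin1, Csnk1a1, Ctnnb1 and Gsk3b). The share over all GO background genes was 26.0%, and this small term was picked with its count in view.

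In the nucleus, the only listed TCF/LEF factor was Tcf7l1, which often acts as a repressor. This family share, 1 of 4 genes, is close to the 25.2% of all protein-coding genes that were listed. Tcf7, Lef1 and Tcf7l2, a gene known for its association with type 2 diabetes, had no line. Smad4, the common mediator of TGF-beta signalling, had 1 line, as did Myc, Jun and Ppard, which KEGG places as targets. No nuclear gene among the 46 had more than 1 line under its own ID. Chd8 and Ruvbl1 stood above the rest, at 3 and 5 lines, through the lines of Gm26590 and Gm3086.

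Of the non-canonical arms, the cell polarity role held Rac1 alone among the 46 genes, a small GTPase with 1 line. Each gene was given a single role here. The GO term for the planar cell polarity pathway also holds Dvl1, Dvl2, Fzd1, Fzd3 and Wnt5a, members that are placed in other roles. The calcium arm had 7 genes, among them the calcineurin subunits Ppp3cb (catalytic, 4 lines) and Ppp3r1 (regulatory, 1 line), the protein kinase C gene Prkca, the kinase gene Camk2b, and Nfatc1 and Nfatc3, transcription factors that calcineurin activates. The last 4 had 1 line each. The arm was listed only in part. Of the wider list described below, 2 of 5 calcineurin genes, 2 of 5 NFAT genes and 1 of 4 Camk2 genes had a line. The phospholipase C genes Plcb1, Plcb2, Plcb3 and Plcb4, which start the calcium signal, had no line. Only 25.2% of all protein-coding genes had one, and the absence of these genes was not tested against that share.

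A wider list of 165 Wnt genes, which adds genes that the KEGG row does not hold, was set against the gene table by own ID. In all, 53 genes were listed (32.1%, exact 95% interval 25.1% to 39.8%, counting error only), against 25.2% of all protein-coding genes. The interval includes that share. With genes listed only through unnamed models counted as well, the share of the list was 34.5% (27.3% to 42.3%). The 25.2% was counted under own IDs only. The list also holds all 46 members, which were chosen by the same listing, so its share is partly set by selection. Neither interval can therefore show whether the list differs from all protein-coding genes. Of the 53, 42 were members, 3 were left out of the members (Cul1, Rbx1 and Siah1b) and 8 were not in the KEGG row. Those 8 were Bcl9 with 4 lines, Bcl9l with 2, Pygo2, Tle1, Tle3 and Tle4 with 1 each, Celsr2 with 2 and Celsr3 with 5. Bcl9, Bcl9l and Pygo2 encode coactivators that beta-catenin recruits, the Tle genes encode Groucho corepressors that TCF factors bind without it, and the Celsr genes encode cadherins of the planar cell polarity system.

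By role, the share listed was highest for Dishevelled and its regulators (6 of 13, 46.2%), the destruction complex and beta-catenin turnover (9 of 21, 42.9%), receptors (9 of 22, 40.9%) and nuclear genes (12 of 30, 40.0%). It was 30.4% in the calcium arm (7 of 23) and 26.3% among ligands. The lowest shares were those of the planar cell polarity arm (3 of 18, 16.7%) and of ligand processing and secreted regulators (2 of 19, 10.5%). The interval of each of the 8 roles included 25.2%. Of the 53 listed genes, 42 are members chosen by the same listing. These intervals therefore cannot show whether a role differs from the background, and no difference was tested. Secreted regulators without a line included Cer1, Dkk1, Dkk2, Dkk4, Frzb and Notum. Polarity genes without a line included Celsr1, Daam1, Daam2, Invs, Mapk8 and Mapk10. Absence from the table does not show the absence of a peak, since only 9 of the 22 genes with deposited autophagy peaks were in it.

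**Figure D3:**
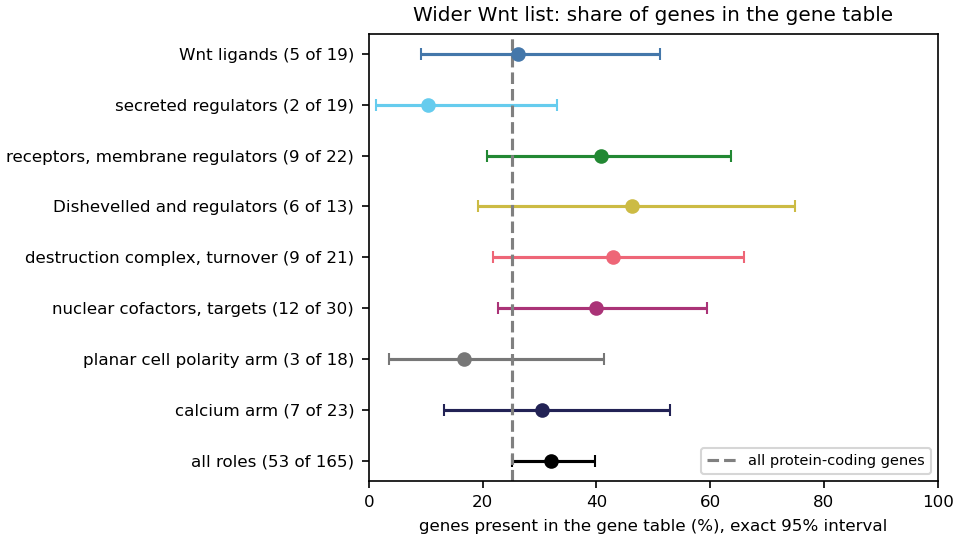
Share of the wider Wnt list present in the gene table (%, x axis) by role, with exact 95% intervals; the dashed line is the share of all protein-coding genes, 25.2%. Every role's interval crosses the line, and the point for all 165 genes is at 32.1%.

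Several other families of the wider list were listed in part or not at all, as noted after the values were seen. Both BCL9 genes and 3 of 4 Tle genes of the list were listed, Tle2 being absent. The R-spondin genes (0 of 4) and their receptors Lgr4, Lgr5 and Lgr6 (0 of 3) had no line. Nor did Dkk1, Dkk2 and Dkk4 (0 of 3), the Vangl genes (0 of 2), the Prickle genes (0 of 2) and the Jun kinase genes (0 of 3). The share of all protein-coding genes was 25.2%, and families this small were not tested against it. R-spondins raise Frizzled at the cell surface and DKK proteins block LRP5 and LRP6. Expression of these genes in MIN6 cannot be read from the files, so whether their RNA was present was not tested.

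The GO terms in this paragraph and the next were picked with their counts in view. In the authors' deposited GO table, "Wnt signaling pathway" listed 117 of 391 background genes (29.9%), against 26.0% for the 5409 distinct IDs in all term lists of 20770 background genes. It held 30 of the 42 members under own IDs, and 12 were outside it, among them Camk2b, Nfatc1, Nfatc3, Ppp3cb, Ppp3r1 and Prkca of the calcium arm. "Wnt-activated receptor activity" listed 8 of 16 genes (50.0%), which were the 6 Frizzled genes, Lrp5 and Lrp6. "Frizzled binding" listed 11 of 41 (26.8%) and "Wnt-protein binding" 8 of 34 (23.5%), again all of them members.

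The largest share among these terms was that of the "beta-catenin-TCF complex" in the authors' deposited GO table, with 8 of 11 genes (72.7%). Only Ctnnb1 of these is a member; the other 7 were Bcl9, Bcl9l, Ldb1, Pygo2, Tle1, Tle3 and Tle4. The nuclear end of the pathway thus had listed genes that the KEGG row misses. Terms for positive and negative regulation of the canonical pathway had 34 of 92 (37.0%) and 30 of 119 (25.2%) genes, and their difference was not tested. Non-canonical signalling had 17 of 53 (32.1%), of which 12 were members, and the planar cell polarity term 9 of 37 (24.3%), with Celsr3 among its 3 genes that are not members.

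The Wnt genes recurred in other KEGG rows. How many rows a listed gene stands in is set by its KEGG annotation, so the recurrence is no result about m6A or GR. A member stood in a median of 8 other pathway rows, against 1 for all 2074 Entrez genes of the table. Prkca was in 58 and Prkaca in 57 others, whereas Chd8, Cxxc4, Frat1, Frat2, Ruvbl1, Serpinf1 and Sfrp5 were in none. The rows that held most members were pathways in cancer (27 of its 141 genes), HTLV-I infection (25 of 114), Hippo signaling (21 of 59) and melanogenesis (21 of 42). In basal cell carcinoma, 19 of the 21 listed genes (90.5%) were members, so nearly all of that row's genes also stand in the Wnt row. mTOR signaling, a pathway that controls autophagy, held 19 members among 69 genes (27.5%), including all 5 ligands, all 7 Frizzled genes with Fzd5, Lrp5, Lrp6, Dvl1, Dvl2, Gsk3b and Prkca. MAPK signaling, axon guidance and oxytocin signaling held more members of the calcium arm than of any other role, among 11, 10 and 9 members.

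**Figure D4:**
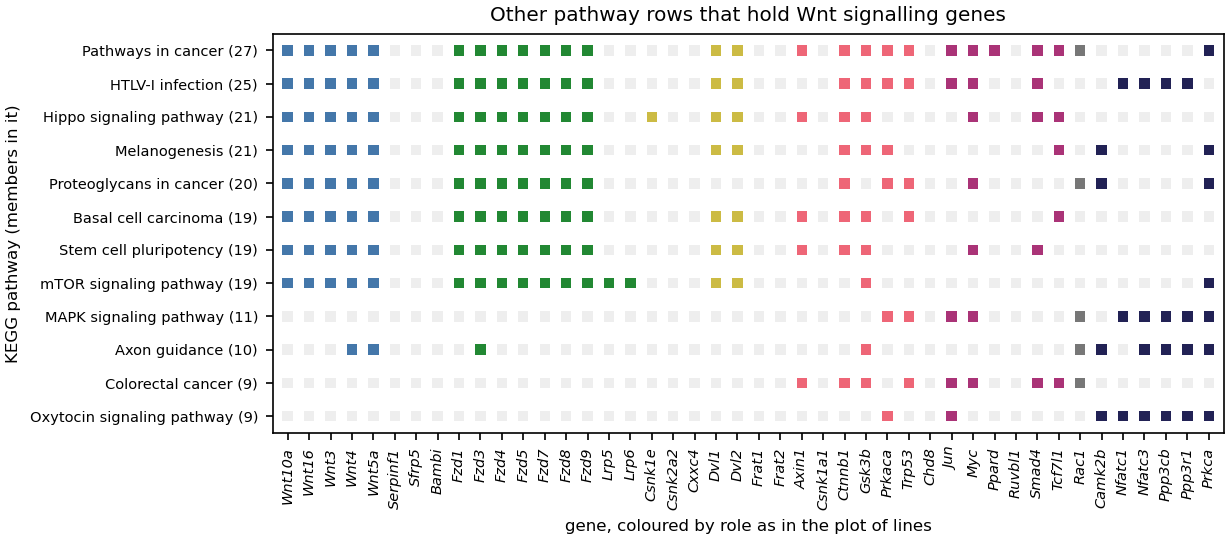
KEGG pathway rows (y axis, number of all members in brackets) against 44 of the 46 Wnt signalling genes (x axis); a coloured square marks a gene in that row, coloured by role. Ligand, Frizzled and Dishevelled genes fill the same 8 upper rows, except that Dvl1 and Dvl2 are missing from proteoglycans in cancer.

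Starts of transcription were searched for short motifs in RefSeq windows (GRCm38.p6) of 250 bases before and 50 bases after the start. Windows were found for 31 members (37 windows) and not, among others, for Axin1, Bambi, Csnk1a1, Fzd3, Fzd8, Lrp5, Lrp6, Myc, Nfatc1, Rac1, Smad4, Wnt10a and Wnt5a. The core of the m6A consensus, GGACT on the transcribed strand, was in the 50 transcribed bases of 3 of 37 windows (8.11%), against 5.76% of all 32851 windows. The 3 sites are shown because they are the only places in these windows where the start of a member's RNA holds that core. They are printed 5′ to 3′ on the transcribed strand with the core in capitals.
Jun (chr4:95052186-95052214, minus strand): caggctggataaGGACTcagagttgcact
Prkaca (chr8:83972978-83973001, plus strand): ggacagaGGACTtgggctgaggct
Wnt3 (chr11:103774178-103774206, plus strand): ccaacctcaagtGGACTttgttccaacta

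Each of these 3 genes had 1 line in the gene table. Upstream of the start, the TCF/LEF core CTTTGAT (either strand) was in none of the 37 windows, against 3.21% of all windows. The half-site bound by GR, AGAACA on either strand, was in 2 of 37 windows (5.41%), both of Csnk1e, against 16.1% of all windows. The full site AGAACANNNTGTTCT was in none and in 0.00913% of all windows. The half-sites of Csnk1e, the gene with the antisense Gm16059, are shown with the letters of the motif or of its reverse complement in capitals. The nearer site is the same in both windows, 68 and 154 bases from their starts, so the windows overlap. Both starts lie inside the gene bounds and not at their 5′ end, 79455579 on the minus strand. A match is only a match of letters, and neither m6A nor GR binding at these places is given in the files.
Csnk1e, nearer the start (chr15:79442194-79442223, minus strand): ggtggcagcgtcAGAACAcgctctccgggg
Csnk1e, farther from the start (chr15:79442358-79442387, minus strand): gcccctggccagTGTTCTctacagccttca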

How the data were processed

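m6A-bearing RNA fragments were enriched with an antibody and sequenced from both ends, per the labels' protocols. The tools were BWA 0.7.12 and HOMER 4.9.1, with genome build mm10, per the submitters' processing notes. The caller of differential peaks and its thresholds are not given in the sources used here. The KEGG p-values are the authors' own, from a hypergeometric or Fisher's test with Benjamini-Hochberg correction, per the file headers. The p-values of the deposited GO table are all 1 and were not used.

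Gene IDs were named from a table of Ensembl IDs, and bounds, gene classes and promoter windows came from RefSeq tables of GRCm38.p6, matched by Entrez number or symbol. Lines per ID were counted in the gene table. Long gene lists of the GO table were joined over their overflow lines. Shares carry exact Clopper-Pearson 95% intervals (SciPy 1.17.1, Python 3.11.15; figures with Matplotlib 3.10.9). No test was run, since each arm has 1 library of each kind. Counting code was tested on simulated data.

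The members and lists were chosen with earlier results of these data known. By rule, every ligand, receptor and destruction complex gene was named, and the 4 genes with most lines in each other role. Up to 6 absent genes were named in alphabetical order for ligands, secreted regulators and the polarity arm. In the other roles that order was not kept, and absent genes and other names were added after their values were seen. For 2 members, values are counted in the totals and not reported here by gene. Of the beta-cell genes that mark MIN6, Ins1, Pdx1, Mafa and Nkx6-1 were in the gene table and Ins2 was not; the table holds no levels.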

Additional observations from a re-analysis of the deposited data

How the results depend on the processing

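The number of Wnt genes, 46, was 48 by input ID, 52 with nothing left out of the row, 46 when each gene also had to be found by ID in the gene table, and 42 under own IDs only, a setting added after the data were seen. The 83 lines became 81 with the ID of most lines per gene and 63 both by deposited symbol and under own IDs. The median of 1 line was 1 in each setting tried, and it is 1 by construction when only distinct lines count. The share of the wider list, 32.1%, was 32.1% by deposited symbol and 34.5% (27.3% to 42.3%) with unnamed models counted, also added later. The 25.2% of all protein-coding genes was counted under own IDs only and so is not a like count for the last setting. The wider list also holds the 46 members by selection, so its intervals cannot be read against that share. Restricting the wider list to genes in the pathway rows was not run, because those rows hold listed genes only. These settings regroup rows of the same tables and do not measure replicate error. No paired analysis was possible because each arm has 1 library of each kind. Depth is unknown, so a gene without a line may lack RNA, m6A, a difference or coverage, and these cannot be told apart.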
